A study of Drosophila melanogaster and Drosophila ananassae and Drosophila pseudoobscura with 52 samples.

Results

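The isolated autosomal editing sites are those A-to-I RNA editing sites of the 2380 listed for Drosophila that lie outside the X chromosome and whose nearest other listed site on the same chromosome is more than 1000 bp away. By this rule 568 of the 2380 sites were members, and 115 of the 568 had an editing level in at least 1 library or species column. They were compared with the 1332 autosomal sites that have a listed neighbor within 1000 bp and with the 477 sites of the X chromosome. A further 3 sites, each the only one listed on its sequence, were left out and carried no level. Editing levels came from mmPCR-seq, a targeted method that amplifies many chosen cDNA loci in parallel on a microfluidic chip and then sequences the products. The species comparison used whole bodies of adult males and females aged 5 days, from 1 stock each of D.mel (14021-0231.69), D.sim (14021-0251.011), D.yak (14021-0261.01), D.ana (14024-0371.13), D.pse (14011-0121.94) and D.vir (15010-1051.09), and the authors deposited 1 value per species and sex. Every species and sex had 2 mmPCR-seq libraries, and D.ana, D.pse and D.vir had 2 more of each sex from a second round of targeted sequencing. The strain comparison used whole bodies of adult males, also aged 5 days, of 8 inbred D.mel lines from the DGRP, a panel of sequenced wild-derived lines (lines 26, 325, 352, 441, 721, 774, 786 and 804), with 2 libraries per line and 1 value per library. No treatment or transgene was part of any group. No table gives read counts, so the depth behind a level is unknown beyond the minimum of 50 reads.

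In A-to-I editing, ADAR enzymes deaminate adenosines within double-stranded RNA, and the resulting inosine is read as guanosine in cDNA. The editing level is the share of reads with guanosine at the site. Drosophila Adar acts mainly in the nervous system, where many of its targets encode ion channels and proteins of synaptic transmission. Several adenosines of a duplex are often edited together, so that many known sites have close neighbors. A whole-body level pools every tissue that makes the transcript, and a different mix of tissues cannot be told apart from a different level within each tissue.

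The loci were reached with primer pairs designed by the authors. The D.mel design holds a pair for 119 members, 112 of which had a level. The pairs of 9 sites called in the comparisons of strains, sexes and species described here are shown, written 5′ to 3′ in lower case because no base within a primer is singled out.
2L:6779407 forward: cctgggccaagaatattcagt
2L:6779407 reverse: gaaaacctaaggtcgctagctc
3R:482227 forward: tggcctagcttcagatacc
3R:482227 reverse: gtgcccacctttccagctat
2L:20346120 forward: catgaccaaggcggagct
2L:20346120 reverse: ggggcacgtttcggaagt
3R:3848991 forward: tcaactgtgcggaggaact
3R:3848991 reverse: ctctgccctctagggtcac
3R:20137053 forward: caaacgctcgtgcaggt
3R:20137053 reverse: cgtcctggattatgcccttaa
3R:19929436 forward: agatgatcgatcgcattgagtac
3R:19929436 reverse: gctaacatatgaggccgctaa
3L:2259941 forward: ccgcaactttggaaagctctt
3L:2259941 reverse: ttcgaattgcggcctattaact
2L:411895 forward: caatgatcagcacatgggagt
2L:411895 reverse: agcaatcgcagaagtttcac
3R:25682017 forward: gctaaaggacacgccacac
3R:25682017 reverse: tgcgcttatcctccagaatgt

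For the second round, other pairs were designed in D.ana (56 members), D.pse (50 members) and D.vir (57 members). Those of the site at 3R:25682017, whose level was near 100% in D.mel and near 0% elsewhere, are shown to make plain that a different pair was available for each of the distant species.
D.ana 3R:25682017 forward: tgaccaactaaaggaaactcctc
D.ana 3R:25682017 reverse: cgcttgtcctcgagaatatgt
D.pse 3R:25682017 forward: ccacgatcagcttaaggagac
D.pse 3R:25682017 reverse: gaaatagaacctggcgcttatc
D.vir 3R:25682017 forward: cgagcgcaaactgtatgaac
D.vir 3R:25682017 reverse: tacaacacctgacgcttatcc

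Sites are named by chromosome arm and position in the dm3 build of the D.mel genome, the build given in the submitters' processing notes. Without an annotation of that build, genes, exons and UTRs are not given for the sites. Isolated sites made up 127 of the 354 listed sites of 2L, 124 of 506 on 2R, 126 of 425 on 3L, 183 of 566 on 3R and 8 of 49 on chromosome 4. Among them, 20, 32, 30, 32 and 1, respectively, had a level. The share with a level was 20.2% over the members, against 49.6% of the other autosomal sites and 42.6% of the X sites. The median distance to the nearest listed site was 24737 bp over the members and 12 bp over the other autosomal sites. The members closest to the limit were 4:910693 and 4:909692, each 1001 bp from its neighbor, and 3L:11964001 at 1008 bp. Just outside it were 3R:11132583 and 3R:11133569 at 986 bp and 4:921814 at 899 bp. The most isolated sites were 2L:21700990 and 2L:22162486 at 461496 bp and 3L:22543552 at 473224 bp. None of these 9 sites had a level.

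In D.mel, the higher of the male and female levels was available at 107 members. It was under 1% at 36 of them, between 1% and 2% at 6, between 2% and 10% at 25, between 10% and 50% at 28 and at 50% or more at 12. At the 2% limit of the authors, 65 members (60.7%) were edited, against 75.6% of 565 other autosomal sites and 82.5% of 183 X sites. Sites with next to no editing were more common among the members, at 33.6% under 1% against 17.2% of the other autosomal and 10.4% of the X sites. Among edited sites, the medians were close, at 15.2% for the members, 15.35% for the other autosomal sites and 16.5% for the X. The top of the range also differed. Of the 8 sites of the whole table at 95% or more in D.mel, 5 were isolated autosomal sites, 3 were other autosomal sites and 0 were on the X. These shares are descriptions over sites, which are not replicates, and no test was made of them.

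**Figure D1:**
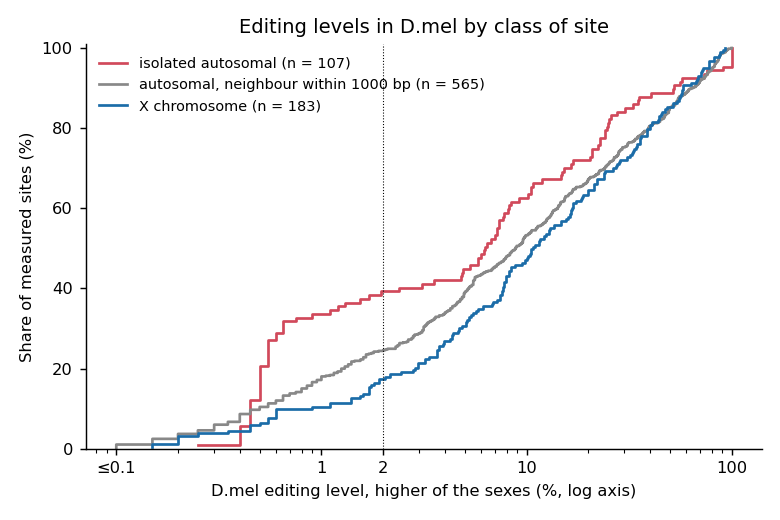
Cumulative share of measured sites (vertical axis, %) by D.mel editing level, the higher of the sexes (horizontal axis, %, log scale), for isolated autosomal, other autosomal and X sites. The dotted line marks 2%, at or above which 65 of 107 isolated sites lay, and the red curve ends in a step of 5 sites at 95% or more.

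The members with the highest D.mel levels fell into separate patterns. At 2R:20236427 the male level was 100%, with no female value and no level in another species or line. At 3R:26470865 it was 99.65% in males and 99.9% in females, and line 721 alone of the lines had values there, 100% and 98.8%. At 3L:2259941, 2L:8224296 and 3R:25682017 the levels were at least 99.8% in both sexes of the D.mel stock and no line had a level. In these 5 sites nearly every read carried guanosine. Genomic DNA of the stocks was not used here, and at these sites a G in the genome cannot be told apart from an edited A.

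Below these, the level at 2R:19894078 was 90.9% in D.mel males and 84.9% in females. The site at 3L:21327037 was at 76.1% in males and 68.3% in females of D.mel, and at 79% and 67.25% in D.sim. Males were higher in both species at this site. In the lines, its library levels ran from 50.7% to 79.2% with a median of 72.35%. At 3R:16866029 the D.mel value was female only, at 73%, and the other species gave male values of 53.8% in D.yak and 79.75% in D.pse.

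Male levels exceeded female levels at most members. Of the 59 members edited in D.mel with a value in both sexes, 52 were higher in males, and the median difference was 6.45 percentage points, with a median level of 14.65% in males and 3.55% in females. In D.sim, males were higher at 32 of 33 members with a median difference of 8.35 percentage points. The count was 18 of 20 for D.yak (median difference 4.975 percentage points), 11 of 12 for D.ana (5.7), 7 of 12 for D.pse (1.325) and 4 of 5 for D.vir (3.1). Among the other autosomal sites, the share higher in males was 83.5% in D.mel against 88.1% of the members. For the other 5 species it was 84.9% against 97.0% (D.sim), 73.7% against 90.0% (D.yak), 72.0% against 91.7% (D.ana), 59.5% against 58.3% (D.pse) and 45.6% against 80% (D.vir). The median difference over other autosomal sites was 3.45 percentage points in D.mel. In the other 5 species, in the same order, it was 3.8, 2.775, 1.675, 1.2 and −0.25 percentage points. The median male level was close between the classes in D.mel, at 14.65% and 14.025%, and the female median was 3.55% at the members against 7.625% at the other autosomal sites.

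**Figure D2:**
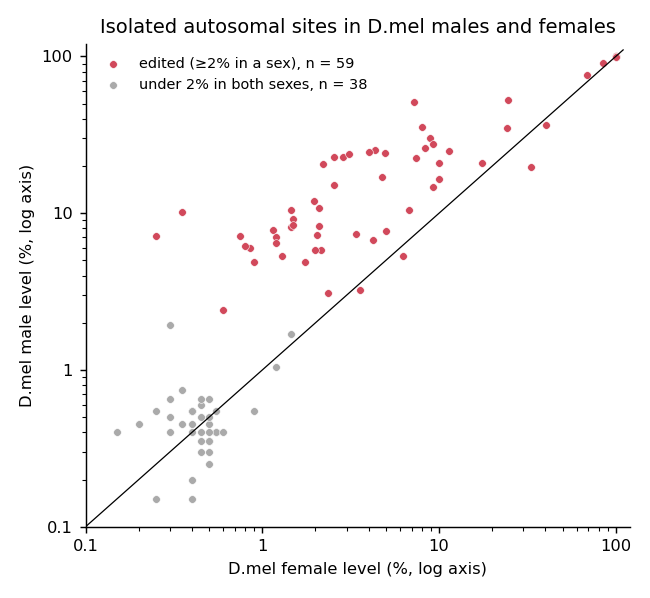
Editing level in D.mel females (horizontal axis, %) against males (vertical axis, %), both on log scales, at the 97 isolated sites with a value in both sexes; the line marks equal levels. Of the 59 edited sites in red, 52 lie above the line, and the 38 grey sites were under 2% in both sexes.

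To ask which single sites differed between the sexes across species, log2((level + 0.01) / (1 − level + 0.01)) was fitted with limma at the 251 sites with both sexes in at least 4 species, with species as a block. The species are thus the replicates of the sex difference. Males were higher at 11 of the 251 sites (4.38%) and at 3 of the 29 members tested, at a Benjamini-Hochberg adjusted p-value under 0.05. Females were higher at 0 sites by limma, and 57 sites in either direction, 11 of them members, had an unadjusted p-value under 0.05. The median male minus female difference was 0.67 on this log2 scale over the members, 26 of them positive, and 0.31 over all sites tested, with 198 positive.

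The first of these 3 members was 2L:20346120. Its male and female levels were 22.85% and 2.55% in D.mel, 23.25% and 2.75% in D.sim, 30.55% and 3.6% in D.yak, 12.9% and 5.2% in D.pse, and 7.45% and 2.6% in D.vir. D.ana had a female value only, 10.85%. Males were higher in 5 of 5 species, by 2.39 ± 0.37 on the log2 scale of the fit (SE, limma adjusted p = 0.0297). The female levels of D.mel, D.sim, D.yak and D.vir were close to each other, and the male levels were more spread.

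At 3R:3848991 the male and female levels were 20.45% and 2.2% in D.mel, 21.75% and 5.65% in D.sim, 15% and 3.1% in D.yak, and 10.5% and 4.5% in D.ana. Every male level exceeded every female level, by 2.10 ± 0.33 on the same scale (SE, 4 of 4 species, limma adjusted p = 0.0297). At 3R:20137053 they were 24% and 3.1% in D.mel, 25.55% and 2.45% in D.sim, 28.25% and 13.7% in D.ana, and 15.05% and 3.4% in D.pse. D.vir had a male value only, 13.35%. Males were again higher in 4 of 4 species, by 2.40 ± 0.38 (SE, limma adjusted p = 0.0297), and D.ana females stood apart from the other females at this site. The calls at these 3 members depended on which species were in the fit. When a species was left out and the minimum was lowered to 3 species, 0 members were called without D.mel, without D.sim or without D.yak, although 3R:20137053 has no D.yak value and its difference stayed at 2.40. Its call was also lost without D.pse (limma adjusted p = 0.0654). Without D.vir, 8 of 39 members and 34 of 380 sites (8.95%) were called, and with all species and a minimum of 3 it was 3 of 38 members and 16 of 400 sites (4%). With the minimum kept at 4, leaving out a species gave 0 to 5 member calls. On untransformed levels 0 members were called.

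The opposite direction was seen at 3R:15589356 in all 4 species with a value in both sexes. Its male and female levels were 19.6% and 33.05% in D.mel, 18.45% and 22.9% in D.sim, 20.1% and 39.35% in D.yak, and 21.15% and 22.6% in D.pse. The male levels were close to each other in these 4 species, and each was below its female level. D.vir had a male value only, 6%. The difference of −0.70 on the log2 scale was not past the threshold (limma adjusted p = 0.205).

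**Figure D3:**
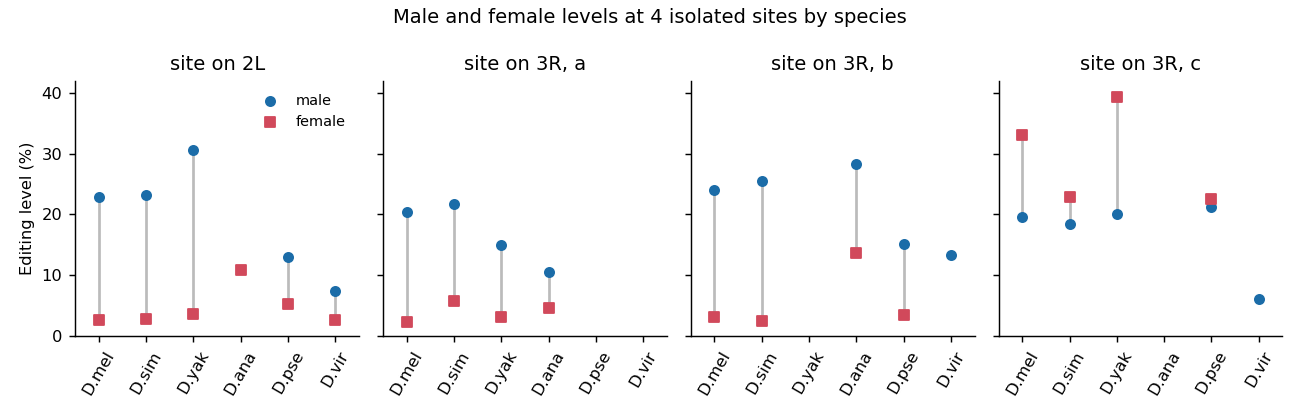
Editing level (vertical axis, %) in males (circles) and females (squares) of 6 species at 2L:20346120, 3R:3848991 (3R, a), 3R:20137053 (3R, b) and 3R:15589356 (3R, c); grey lines join the sexes of a species, and each point is 1 value of the authors. Where a species has both sexes, the male point lies above the female point at the first 3 sites and below it at 3R:15589356.

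Fewer members than other sites were edited in every other species. The share of measured members edited at 2% or more was 47.5% of 80 in D.sim, 47.2% of 53 in D.yak, 36.0% of 50 in D.ana, 32.7% of 49 in D.pse and 25.0% of 40 in D.vir. Over the other autosomal sites it was 74.7%, 64.8%, 56.5%, 48.7% and 43.5%, in the same order. Of the members edited in D.mel and measured in the other species, 37 of 46 were edited in D.sim, 25 of 38 in D.yak, 17 of 34 in D.ana, 16 of 31 in D.pse and 10 of 28 in D.vir. These shares were 80.4%, 65.8%, 50%, 51.6% and 35.7%, against 88.5%, 81.2%, 64.3%, 54.7% and 46.5% of the other autosomal sites. In each species this gap was smaller than the gap over all measured sites. Male levels of the members had a Spearman's rho with D.mel of 0.513 for D.sim (70 sites), 0.468 for D.yak (44), 0.339 for D.ana (45), 0.495 for D.pse (44) and 0.138 for D.vir (36). The other autosomal sites gave 0.840, 0.769, 0.517, 0.419 and 0.317. These rho values describe sites of the same libraries. The 3 members at 99.8% or more in D.mel and at 0.4% or less elsewhere are included in them. Where measured, these 3 also count among the members edited in D.mel.

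Of the 28 members edited in D.mel and measured in at least 5 species, 4 were edited in D.mel alone and 3 in all 6 species. Over the other autosomal sites these were 8 and 24 of 170. The 4 members were 2R:3988206, which had no D.yak value, and 3L:2259941, 2L:8224296 and 3R:25682017. At the last 3, a G in the D.mel genome cannot be told apart from editing. No level of 2% or more was found in D.ana, D.pse or D.vir at 12 of the 28 (42.9%), against 23.5% of 170 other autosomal sites. An unmeasured species counts here as without editing. Of the 12, 2R:20792240, 3L:2259941 and 3R:13223272 had no D.pse value, and 3R:1830102 had no D.vir value. The 3 sites near 100% in D.mel are among the 12. Of the 67 members measured in at least 3 species, 19 (28.4%) were at 1.5% or less in every measured sex and species, against 8.68% of 438 other autosomal sites. All 36 members under 1% in D.mel were also under 1% in every other species with a level, which 29 of them had, and the highest such level was 0.9%. The same was not counted over the other autosomal or X sites, so it is not shown to be a trait of isolated sites. Nor were all of the 36 low in the DGRP lines, since 4 libraries had 22.3% to 35.9% at 3R:27446081.

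With 1 value per sex, species were compared at single sites by limma with sex as a covariate, so that the error is the scatter between the sexes after their mean difference. Among sites with all 12 values, species differed at 42 of 51 (82.4%) and at 6 of the 7 members tested. The strongest was 3R:25682017, where D.mel had 99.8% in males and 99.9% in females and the other 10 values lay between 0% and 0.35% (limma adjusted p = 2.24e-09).

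By the range between species the next site was 2L:411895. It had male levels of 51.55% for D.mel, 46.6% for D.sim, 57.65% for D.yak and 41.4% for D.ana, and of 0.65% or less for D.pse and D.vir. Its female levels were 7.2%, 5.95%, 6.35% and 24.9% in the first 4 species and at most 0.35% in the others (limma adjusted p = 0.00712). Among these 4 species, D.ana had the highest female and the lowest male level. At 3R:19929436 the male levels were 25.9%, 26.9%, 23.95%, 23.8% and 14.35% from D.mel to D.pse, with 0.35% in D.vir. The female levels were 8.35%, 6.85%, 9.25%, 15.85% and 7.45%, with 0.4% in D.vir (limma adjusted p = 0.000922). Editing was present in 5 species and under the 2% limit in D.vir alone.

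At 2R:9767879 the levels were between 4.25% and 7.3% in both sexes of the first 4 species, 2.75% and 2.65% in D.pse, and 5.05% and 1.95% in D.vir (limma adjusted p = 0.0297). This was the only one of the 7 with a male level of 2% or more in every species. At 3R:24424516 the male levels were 8.4% in D.mel, 17.4% in D.sim and 6.05% in D.yak, the female levels 1.5%, 1.9% and 1%, and no value of the other 3 species exceeded 0.7% (limma adjusted p = 0.0478). The call at 3R:24424516 was lost under 3 of 5 alternative settings (limma adjusted p up to 0.259) and that at 2R:9767879 under 2 of 5 (limma adjusted p up to 0.108). At 2L:13299974 the levels were 7.3% and 2.05% in D.mel and 4.95% and 1.75% in D.sim, and 0.65% or less elsewhere (limma adjusted p = 0.00314). The profile of 3L:3086223, with 7% and 1.2% in D.mel and 5.05% and 0.25% in D.sim, was similar, and its adjusted p of 0.0804 by limma was not past the threshold. The site 2R:4755330 had all 12 values between 0.15% and 0.65% and did not enter the fit. On untransformed levels, 2 of the 7 members were called.

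**Figure D4:**
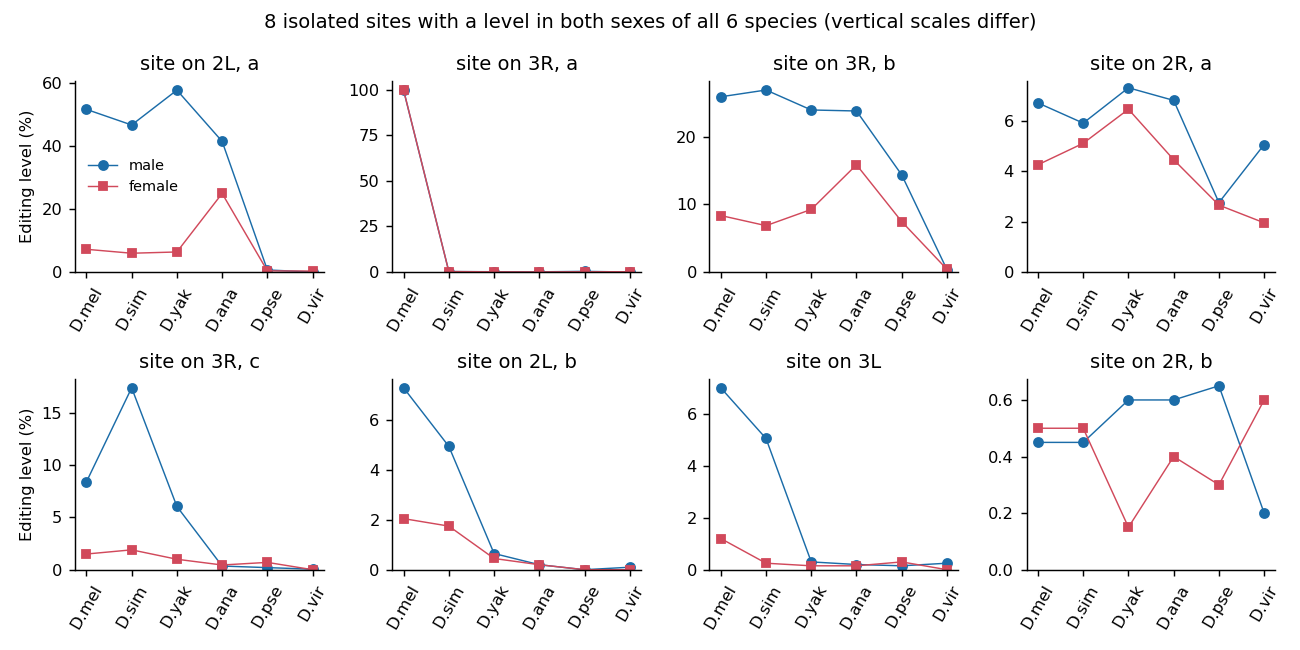
Editing level (vertical axis, %, a different scale in each panel) of males (circles) and females (squares) in 6 species at 2L:411895 (2L, a), 3R:25682017 (3R, a), 3R:19929436 (3R, b), 2R:9767879 (2R, a), 3R:24424516 (3R, c), 2L:13299974 (2L, b), 3L:3086223 (3L) and 2R:4755330 (2R, b); each point is 1 value of the authors and lines only guide the eye. In D.vir only 2R:9767879 has a level of 2% or more, and 3R:25682017 is near 100% in D.mel alone.

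In the fit of the closest species, D.mel, D.sim and D.yak, levels differed between species at 47 of 250 sites (18.8%) and at 4 of 26 members. At 3L:2259941 D.mel had 100% and 99.9%, and D.sim and D.yak had 0.1% to 0.2% (limma adjusted p = 2.97e-06). At 2L:8224296 D.mel had 99.9% in both sexes, D.sim 0.15% in both, and D.yak 0.15% and 0% (limma adjusted p = 2.97e-06). With 3R:25682017 (limma adjusted p = 2.97e-06), these are D.mel levels with no intermediate value in any species. The fourth, 2R:9945550, had 8.15% and 1.45% in D.mel, 11.5% and 2.35% in D.sim, and 0.7% and 0.15% in D.yak (limma adjusted p = 0.0398), a call that was lost under 4 of 5 alternative settings (limma adjusted p up to 0.372). Besides the 3 sites near 100%, the members edited at 10% or more in D.mel and under 1.5% in at least 3 other species were 3L:9885234 and 2R:3988206. At 3L:9885234 the levels were 35.4% in males and 8% in females of D.mel, 25.75% and 4.5% in D.yak, 3.2% in D.sim females, and no more than 0.5% in the 3 distant species D.vir, D.pse and D.ana. At 2R:3988206 they were 15.2% in males and 2.55% in females of D.mel and 0.3% or less in D.sim, D.ana, D.pse and D.vir. No member was at 1.5% or less in both D.mel sexes and at 10% or more in another species. The authors' primers were designed for sites edited at 5% or more in adult D.mel, so such sites were largely kept out beforehand. This count therefore does not show how common they are.

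In the DGRP lines, 80 members had a level, 63 of them in all 16 libraries. The mean level was under 1% at 22 of these 63, and the other 41 were tested for differences between lines by the moderated F test of limma on the same log2 scale. Levels differed at 7 of the 41 members (17.1%), against 92 of the 478 sites tested in all (19.2%). The median range of the line means was 7.55 percentage points over the 41 members and 7.15 over all sites tested. The libraries within a line differed by more than 10 percentage points at 8 of the 41 members in line 774 and at 0 to 3 in each other line. Over all 478 sites tested it was 80 in line 774 and 9 to 39 in each other line. Spearman's rho between its libraries over the 41 members was 0.851, against 0.945 or more in the other lines. Without replicate 1 of line 774, 14 members and 191 of 479 sites (39.9%) were called, among them the 7 described here. The 2 values of line 721 carry the same replicate label, whereas those of every other line carry different ones. Nothing in the labels says that the 2 libraries of line 721 came from separate flies, and they may come from 1 sample. With their mean as 1 library, 75 of 478 sites (15.7%) and again 7 members were called.

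At the 2 most variable members, the lines fell into separate groups with nothing in between. At 2R:5929235 lines 26, 721 and 804 had library levels between 6% and 8% and the other 5 lines between 93.7% and 97.5% (limma adjusted p = 4.18e-10). The D.mel stock was with the low lines, at 5.3% in males and 6.25% in females, and no other species had a level. At 2R:19894078 the libraries of line 352 had 5.5% and 12.3%, and those of the other lines between 81.3% and 94.2% (limma adjusted p = 2.12e-06). The D.mel stock and the D.yak females, at 75.25%, were closer to the high lines, as was D.ana, at 99.6% in males, whereas both sexes of D.pse had 0.3% and D.vir males 0%. As for the stocks, no line's DNA was read here.

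At 2L:6779407 and 3R:482227 the lines were spread over a lower range. No gap was as wide as at the 2 sites above, though line 441 stood apart from the others at 2L:6779407. The level at 2L:6779407 was 1.85% ± 0.35 (SD, n = 2 libraries) in line 441 and 28.45% ± 5.02 (SD, n = 2) in line 325. The means of the other lines were 12.15% in line 804, 13.85% in 352, 14.15% in 786, 20.05% in 721, 20.95% in 774 and 23% in 26 (limma adjusted p = 2.12e-06). Both libraries of line 441 lay below the 14 others, the lowest of which was 11.7%. The D.mel stock was near line 441, at 2.4% in males and 0.6% in females, and D.sim had 10.8% in males and 1.25% in females.

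At 3R:482227 line 441 was again the lowest, with 7.2% ± 2.26 (SD, n = 2), and line 352 the highest, with 32.25% ± 5.16 (SD, n = 2). The means between were 11.7% in line 786, 15.2% in 325, 18.75% in 26, 22.7% in 804, 24.05% in 721 and 24.65% in 774 (limma adjusted p = 0.000151). The libraries of line 441, 5.6% and 8.8%, and those of line 352, 28.6% and 35.9%, did not overlap with any other line. In the stocks, the male levels were 10.75% in D.mel, 21.7% in D.sim and 0.05% in D.yak.

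At 2L:6452387, lines 441 and 774 were low, with library levels of 20.4% and 21.9% and of 21.8% and 11.8%, against 29% to 41.1% in the other 12 libraries (limma adjusted p = 0.0196). The libraries of line 774 differed by 10 percentage points here. The site was edited in all 6 species, with male levels of 30.3% for D.mel, 36.9% for D.sim, 49.05% for D.yak, 23.45% for D.ana, 13.45% for D.pse and 18.95% for D.vir. At 2R:8646087 the libraries of line 325 had 15.7% and 31.5%, and those of the other lines 4.4% to 13.9% (limma adjusted p = 0.0215). This call rested on line 325 and was lost without its replicate 2 (limma adjusted p = 0.0840) and without the line (limma adjusted p = 0.188), as well as on untransformed levels (limma adjusted p = 0.0726) and with the replicate block (limma adjusted p = 0.0501). At 3L:11676655 the library levels lay between 0.2% and 2.7%, lowest in lines 721 and 774 and highest in line 441 (limma adjusted p = 0.00106), and the call was lost on untransformed levels (limma adjusted p = 0.0982).

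**Figure D5:**
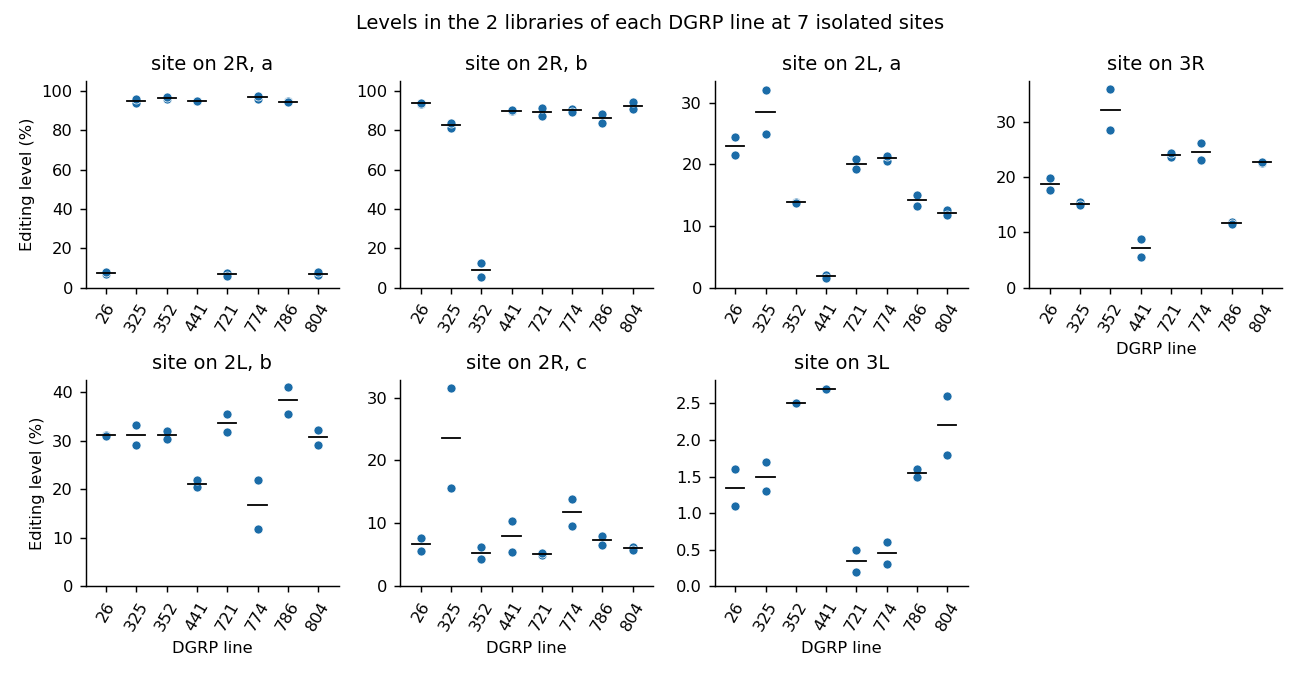
Editing level (vertical axis, %, scales differ) in the 2 libraries (points) of each DGRP line, with bars at the line means, at 2R:5929235 (2R, a), 2R:19894078 (2R, b), 2L:6779407 (2L, a), 3R:482227 (3R), 2L:6452387 (2L, b), 2R:8646087 (2R, c) and 3L:11676655 (3L). At 2R:5929235 lines 26, 721 and 804 sit at 6% to 8% and the others at 93.7% or more, and at 2L:6779407 line 441 sits below all other lines.

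The 16 members with a mean line level of 20% to 80% had ranges of the line means from 4.85 to 90 percentage points, with a median of 11.525. At 7 of them the range was under 10, which was not counted over the other sites. The 4 least variable, chosen as such, spanned 4.85 percentage points at 3R:19929436, 6.9 at 2L:20346120, 7.05 at 3R:15589356 and 7.55 at 2L:9807941. At 3R:19929436 the 16 libraries lay between 20.5% and 27.8% with a median of 24.5%, around the 25.9% of the D.mel stock males. At 2L:20346120 they lay between 15.5% and 26.6% with a median of 20.15%, around 22.85% in the stock. At 2L:9807941 they lay between 59.6% and 71% with a median of 65.5%, above the 56.15% of the stock. That site also had 56.5% in D.yak males, 26.75% in D.pse males and 43.8% in D.vir males, and 0.25% in D.ana males. Over the 41 members tested, the male level of the D.mel stock lay within the range of the line means at 28, below it at 9 and above it at 4. Over all 424 sites tested with a stock male level, these counts were 236, 64 and 124.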

How the data were processed

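Editing levels of 36 species and 16 line libraries were used. Per the methods, reads were demultiplexed with the FASTX Toolkit and aligned to the genome of each species. TopHat and dm3 are named in the submitters' processing notes. The authors deposited levels as a fraction of edited reads at sites with at least 50 reads, without normalization and without read counts. The species tables hold 1 value per species and sex, and how replicates and rounds were combined is not given in the sources used here. In the line table, 16 site names in which NA stood for the digits 200 were restored. Every column was assigned to a group.

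Levels were converted to percent for the text and fitted with limma 3.58.1 (R 4.3.3) on log2((level + 0.01) / (1 − level + 0.01)) at sites with a mean level of at least 1%, with Benjamini-Hochberg adjustment over all sites and a threshold of 0.05. Other steps used Python 3.11.15, pandas 2.3.3, numpy 2.4.6, scipy 1.17.1 and matplotlib 3.10.9. The fits of strain, sex and all species were tried on simulated levels, and the fit of D.mel, D.sim and D.yak was not. The simulated levels had every species value and no outlying library, unlike the data, so they do not show how often the calls are right here. The members, lists and tests were chosen with earlier results of these data known. Named sites were members past a threshold (largest effects), the 8 highest in D.mel, up to 8 with all 12 species values, the 4 least variable between lines at 20% to 80%, up to 5 each for presence in D.mel with absence in at least 3 other species and for the reverse, and those nearest to and farthest from the 1000 bp limit. Replicate numbers of the lines were checked for pairing. Over 7 lines the correlation of deviations ran from −0.13 to 0.31 with a median of 0.12, and 12 of 21 pairs were above 0.1. The main fit has no term for the replicate number, and a fit with such a term is given below. The p-values of the lines measure the spread between libraries.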

Additional observations from a re-analysis of the deposited data

Results flagged for a closer look

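Of the 79 isolated sites with both sexes in at least 2 species, 2 had male minus female differences of opposite sign and more than 10 percentage points each in a pair of species. The same count was not made over the other sites, so whether it is particular to the members is unknown. Large differences of both signs also occurred among edited other autosomal sites, from −34.35 to 82.8 percentage points in D.sim. At 4:895009, the only measured isolated site of chromosome 4, males were higher by 28.1 percentage points in D.mel (52.55% and 24.45%), and the difference was −13.5 in D.pse (55.5% and 69%). The sexes were nearly equal in D.sim, at 31.35% and 30.9%, and males were higher in D.yak, at 32.35% and 12.15%. At 2R:3701368, the difference was 12.15 percentage points in D.mel (16.9% and 4.75%) and −16.6 in D.ana (25.15% and 41.75%). D.yak had 12.65% in males and 14.6% in females there, and D.pse and D.vir had 0.3% or less. The difference between species was not tested at either site, since the tables give 1 value per species and sex.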

How the results depend on the processing

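Of the single-site calls recomputed under the alternatives, 296 stayed on their side of the threshold and 33 lost it. Most of the 296 were strain calls. Only the sex calls have a direction, and 0 of them reversed, since the F tests of lines and species have none. The sex calls were lost under 7 of 17 alternatives at 2L:20346120, 5 of 13 at 3R:20137053 and 4 of 13 at 3R:3848991. For the strain effect, leaving out each library or line in turn gave 74 to 191 calls over all sites and 6 to 14 over the members, the highest without replicate 1 of line 774. With the replicate block, which needs the lines with separate numbers and so leaves out line 721, 93 sites and 9 members were called, 6 of them shared with the 7 called without the block, against 74 sites and 7 members without line 721 and without the block. The labels do not say what libraries of the same replicate number share across lines, and an effect of the number was not tested by itself. For the sex difference, an offset of 0.05 gave 7 calls, untransformed levels 0 (0 members), and sites with both sexes in all 6 species 1 of 51 (0 members). Leaving out a species, with the minimum lowered from 4 to 3 species, gave 3 calls without D.mel, 2 without D.sim, 2 without D.yak, 14 without D.ana, 12 without D.pse and 34 without D.vir, with 0, 0, 0, 3, 2 and 8 members. With the minimum kept at 4, an alternative chosen after seeing the data, these were 3, 2, 4, 9, 5 and 16 calls, with 0, 0, 1, 1, 2 and 5 members. For the species difference, untransformed levels called 2 members. Among the subgroup species (D.mel, D.sim, D.yak), untransformed levels gave 20 calls and a fit without the sex term 24. The share of members edited in D.mel was 37.4% at a limit of 10% and 42.7% in females alone. The cause of these shifts was not tested. The species tables hold no replicate values and no table holds read counts, so the error and depth of single species levels are unknown.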

Other observations

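Some members outside the comparisons were measured in only part of the libraries, and the following were chosen after their values were seen. At 2R:10471078 the D.mel stock had 3.25% in males and 3.55% in females, D.sim 4.15% and 3%, and D.yak 3.25% and 3.2%, whereas the libraries of line 721, the only line with a level, had 95.9% and 94.3%. At 3R:1281800 no species had a level. The libraries of line 721 had 79.9% and 78.4% there, and the 5 other libraries with a level, from lines 441, 774, 786 and 804, had 2.1% to 12.3%.

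At 3L:13460546, likewise without a species level, libraries of lines 325, 352 and 774 had 34.6%, 36.4% and 26.3%, and 4 libraries of lines 26, 441 and 804 had 3.8% to 8.2%. At 3R:27446081 the values of the D.mel, D.sim, D.ana, D.pse and D.vir stocks were all 0.75% or less, and the 4 libraries with a level, from lines 325, 352, 721 and 774, had 22.3% to 35.9%. These sites had a level in 2, 7, 7 and 4 of the 16 libraries, and the depth behind them is unknown. No line's DNA was read here, so a G in the genome of a line cannot be told apart from an edited A. The 2 libraries of line 721 may come from 1 sample.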
